A study of Marmota monax with 203 samples.

Results

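The withdrawal of interferon was followed in the liver of woodchucks (Marmota monax) chronically infected with woodchuck hepatitis virus (WHV), by comparing 2 biopsies of the same animal. The first was taken at week 15, at the end of treatment, and the second at week 19, 4 weeks after it. Of the 164 biopsies sequenced, 22 were used here: 12 from the 6 animals of the agent IFN-alpha (called wIFN-α below) that had both biopsies, and 10 from the 5 animals of the agent Placebo that had both. The wIFN-α animals were M1003, M1012, F1013, F1014, F1018 and F1022, and the placebo animals were M1005, M1008, M1011, F1016 and F1019, where M marks males and F females. All were adult carriers infected as newborns, so that every biopsy, placebo included, came from an infected liver. The wIFN-α animals received woodchuck interferon alpha under the skin 3 times a week, at 20 μg per dose until week 7 and at 100 μg from then until week 15, while placebo animals received the vehicle on the same days. The on-treatment biopsy was taken 6 h after a dose, and the week 19 biopsy under no dosing. The labels number these weeks 16 and 20. A further wIFN-α animal with both biopsies, M1004, was left out by the rule of selection. Every biopsy is from 1 animal, so that the animal is the replicate, and the placebo animals serve as the control for time.

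Type I interferons bind a receptor made of IFNAR1 and IFNAR2, and the kinases JAK1 and TYK2 then activate factors of the STAT family. These join IRF9 in a complex that enters the nucleus and switches on the interferon-stimulated genes (ISGs), among them MX1, the OAS enzymes and the IFIT proteins, which block steps of viral replication. Several ISGs, such as USP18 and SOCS1, restrain the pathway itself. In the liver, hepatocytes, Kupffer cells and lymphocytes all respond to interferon, and the liver is also the site of bile acid, cholesterol and fatty acid synthesis and of the acute phase proteins of inflammation.

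Between 14333111 and 52171290 reads per biopsy lay on genes (median 30109159.5), and 15389 of 17587 gene symbols had enough counts to be tested. The reads were those of liver, since the 16 hepatocyte genes for secreted proteins, albumin among them, took 8.81% to 16.4% of the normalized reads in the wIFN-α biopsies and 7.86% to 17.9% in the placebo biopsies. Some biopsies stood apart. Skeletal muscle genes took 0.0157% to 0.954% of the reads in the wIFN-α biopsies and up to 1.12% in placebo animal M1005 at week 19, and among the wIFN-α animals this share was higher at week 19 in 3 and lower in 3. The 2 sequencing runs of placebo animal M1008 at week 15 differed far more than those of other biopsies (chi-square per degree of freedom 136.907), as did to a lesser extent the runs of wIFN-α animal F1022 at week 19 (31.447), against 1.364 to 2.184 in the other 5 biopsies with several runs. Ribosomal protein genes, a group whose share can follow RNA quality, took more of the reads at week 19 in 6 of 6 wIFN-α and in 5 of 5 placebo animals. Whether a run came from another sample was not tested. The part of these differences in the results was not tested either, but the counts below were also obtained without F1022 and M1008 and from runs of shared lane numbers alone.

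In the wIFN-α animals, 3606 genes, or 23.4% of those tested, changed between week 15 and week 19, with 1534 higher (9.97%) and 2072 lower (13.5%) at week 19. Changes are on the log2 scale with a standard error (SE) derived from the test statistic, unless given as a fold. A negative change is lower at week 19. A gene was called changed at an adjusted p under 0.05 in edgeR's quasi-likelihood test with a fold change above 1.5. In the placebo animals the same test called 65 genes, or 0.422%, with 17 higher (0.11%) and 48 lower (0.312%). The difference between both changes, tested in the same fit at an adjusted p under 0.05, was called for 3816 genes, or 24.8%, of which 1781 were higher (11.6%) and 2035 lower (13.2%) in the wIFN-α animals relative to placebo. No fold threshold was set for the difference, so that its counts, here and in the lists below, follow a looser rule than those of the changes within a group. Both the week 15 to week 19 change and the difference were called in the same direction for 2396 genes. Without the animal as a block in the fit, 3205 genes were called in the wIFN-α animals, 3 in placebo and 2386 in the difference. Without F1022 and M1008 the counts were 3396, 31 and 2613. With only the animals whose 2 biopsies shared a lane number (3 wIFN-α and 2 placebo animals), 2377, 16 and 468 genes were called, and the share of higher genes among those called in the difference fell to 14.1% from 46.7%. The call counts of the 2 groups rest on unequal numbers of animals, and in whole tissue fewer cells of a type cannot be told apart from less RNA per cell. Over all genes tested, the median log2 change was 0.01 in both groups, and a value of every week 19 biopsy below every week 15 biopsy was seen for 1832 genes (11.9%) in the wIFN-α animals and the opposite for 1239 (8.05%). The list counts below are to be read against the shares of all genes. These were 9.97% higher and 13.5% lower in wIFN-α, and 11.6% higher and 13.2% lower in the difference.

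**Figure D1:**
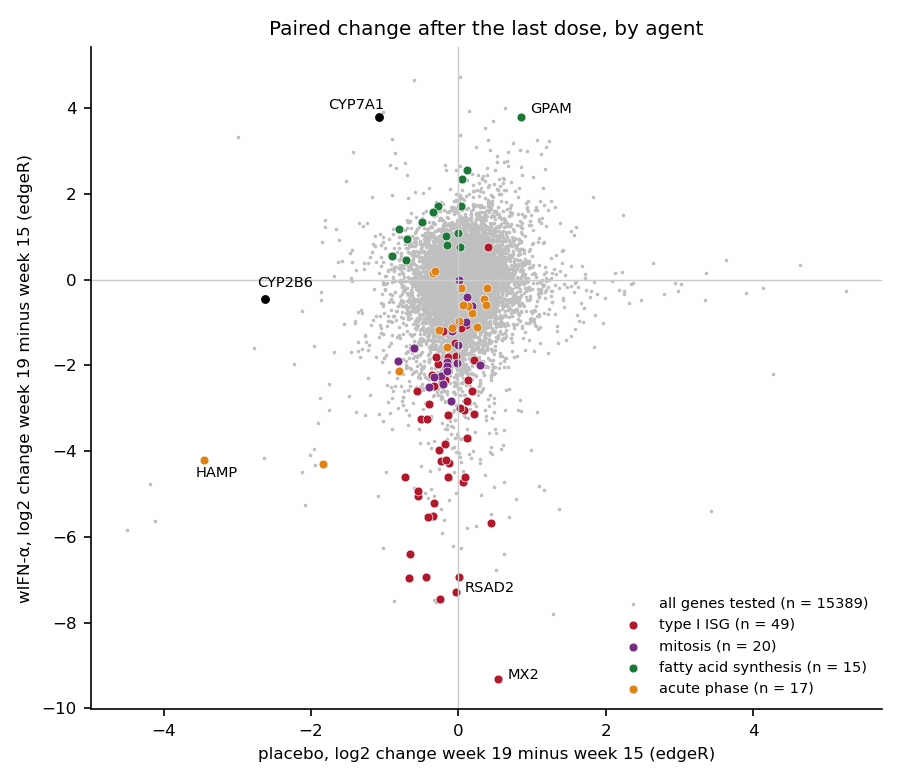
Each point is 1 gene, with its log2 change from week 15 to week 19 in the placebo animals on the horizontal axis and in the wIFN-α animals on the vertical axis. Type I ISGs (red) lie far below 0 in wIFN-α and near 0 in placebo, fatty acid synthesis genes (green) lie above 0 in wIFN-α, mitosis genes (purple) lie mostly below it, and HAMP lies below 0 on both axes.

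Of the 49 type I ISGs tested, 48 fell and none rose, and in each of the 48 all 6 week 19 values lay below all 6 week 15 values. The median log2 change was -3.26, against -0.16 in placebo, where no ISG was called, and the change differed from placebo for 48. Levels are given as CPM (counts scaled to the normalized library size), as the lowest, median and highest of the 6 wIFN-α animals and for the placebo animals in the order F1016, F1019, M1005, M1008 and M1011. MX1, a GTPase that traps viral nucleoproteins, stood at 6686, 7810.5 and 8544 CPM at week 15 and at 808, 912 and 1104 CPM at week 19. In placebo it stood at 675, 718, 648, 516 and 553 CPM and then at 717, 864, 619.7, 441 and 684 CPM. Both weeks were thus separate in the wIFN-α animals and overlapped in placebo. The log2 change of MX1 was -3.04 ± 0.10 (SE), an 8.25-fold fall with an adjusted p of 4.36e-10, and the placebo change was 0.07 ± 0.10.

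RSAD2 (viperin, an enzyme that makes a chain-terminating nucleotide) fell from 2282, 3577 and 4064 CPM to 19.2, 21.8 and 26.2 CPM. The placebo values of 23.6, 30.3, 22.3, 20.4 and 20.7 CPM at week 15 and 24.8, 30.3, 18.9, 21.96 and 19.3 CPM at week 19 covered the week 19 range of the wIFN-α animals. Its log2 change was -7.28 ± 0.14 (155-fold, adjusted p = 1.63e-11), against -0.03 ± 0.12 in placebo. ISG15, a ubiquitin-like protein attached to many targets, fell from 668, 791 and 1078 CPM to 3.27, 5.57 and 13.2 CPM, a log2 change of -6.94 ± 0.33, and read 8.08, 5.78, 8.63, 21.2 and 22.9 CPM and then 7.98, 7.56, 8.21, 12.1 and 7.09 CPM in placebo. The highest placebo values were those of M1008 and M1011 at week 15, and both groups overlapped at week 19. USP18, which removes ISG15 from its targets and damps the receptor, fell from 334, 404 and 451 CPM to 2.34, 4.004 and 10.1 CPM (log2 change -6.41 ± 0.35), with 2.48 to 15.5 CPM over all placebo biopsies.

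The ISGs with the largest fitted falls included MX2, OASL, IFIT2 and IFIT3. MX2, the paralog of MX1, stood at 27.8 to 56.8 CPM at week 15 and at no more than 0.154 CPM at week 19, and went from 6895 reads to 12 over the 6 animals, so that its fitted log2 change of -9.31 ± 0.30 rests on few reads at week 19. That SE follows from the test statistic and does not cover the counting error of 12 reads. In placebo it lay at 0 to 0.0766 CPM. OASL (-7.44 ± 0.32), IFIT2 (-6.97 ± 0.20) and IFIT3 (-6.93 ± 0.17) were abundant at week 15, with medians of 1226, 4363 and 1571 CPM, and their week 19 medians were 8.06, 35 and 14.2 CPM. The OAS enzymes, which make the activator of RNase L, fell with log2 changes of -4.72 (OAS1), -5.04 (OAS2) and -5.21 (OAS3). The smallest falls among called ISGs were those of IFI27 (-1.059 ± 0.08), SP100 (-1.12 ± 0.07), XAF1 (-1.14 ± 0.09) and EIF2AK2 (-1.21 ± 0.08), the last being the kinase PKR. IFIT1 and USP18 have near-identical relatives, and how reads were split between them is uncertain.

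IFI6 was the ISG that was not called, with 0.127, 0.278 and 0.519 CPM at week 15 and 0.289, 0.473 and 0.771 CPM at week 19, a log2 change of 0.75 ± 0.30 (adjusted p = 0.0572) from 51 and 99 reads in all. Without animal M1012 it was called higher, at 0.97. Summed over the list, ISG reads took 2.88, 3.198 and 3.71% of the normalized reads at week 15 (lowest, median and highest) and 0.241, 0.254 and 0.302% at week 19. The placebo animals had 0.221, 0.236 and 0.279% at week 15 and 0.195, 0.228 and 0.2299% at week 19. At week 19 the lowest wIFN-α value thus lay above the highest placebo value of that week, and the lowest and median, but not the highest, within the placebo range of week 15. The levels of both groups at 1 week were not tested against each other here. The count of 48 falls was the same without each animal in turn, without F1022 and M1008 and in the animals with a shared lane, where the median was -3.31.

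Sensors of viral nucleic acid, many of which are ISGs themselves, fell with them: 13 of 15 were lower and none was higher, with a median log2 change of -2.55 (placebo -0.13). TLR3, the endosomal receptor for double-stranded RNA, stood at 130.3, 171 and 203 CPM at week 15 and 2.47, 5.19 and 7.83 CPM at week 19, while placebo lay at 5.64, 2.33, 2.76, 4.55 and 14.2 CPM and 5.59, 2.398, 2.54, 2.995 and 8.05 CPM. The wIFN-α weeks did not overlap, and the log2 change was -5.04 ± 0.16 (adjusted p = 2.57e-10). The cytoplasmic RNA sensors DDX58 (RIG-I) and IFIH1 (MDA5) (-3.10 and -3.90), the DNA sensor cGAS (listed as MB21D1, -3.90), STING (TMEM173, -1.44) and IRF7, the factor that drives interferon genes (-4.42), also fell. TLR7 (-0.06 ± 0.21) and the adaptor MAVS (0.29 ± 0.08) were not called, but the difference for MAVS was (0.42 ± 0.12, adjusted p = 0.0242). DHX58 (LGP2) fell in both groups, from 537, 610.5 and 782 CPM to 109, 192 and 204 CPM in wIFN-α (-1.92 ± 0.14) and from 253, 166, 156, 156 and 349 CPM to 128, 75.9, 53.7, 97.9 and 187 CPM in placebo (-1.04 ± 0.15), lower in 5 of 5, and the changes differed by -0.88 ± 0.20 (adjusted p = 0.00877). DHX58 in placebo (without F1016, F1019 or M1005, range -1.14 to -0.92) and MAVS in the difference (without M1003 or F1019, range 0.32 to 0.48) changed their calls with 1 animal left out, where the range is that over all such fits.

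In the receptor and JAK-STAT list, 9 of 16 genes fell and 1 rose, with a median of -0.74 (placebo -0.03). IFNAR2, the signalling chain of the type I receptor, fell from 33.99, 40.5 and 45.7 CPM to 11.8, 12.96 and 15.3 CPM (-1.59 ± 0.11) and did so in every wIFN-α animal. The other chain IFNAR1 (0.10 ± 0.13), the kinases JAK1 (0.05 ± 0.06) and TYK2 (0.07 ± 0.07), and STAT2 (0.13 ± 0.08) were not called. IFNGR1, the ligand-binding chain of the interferon gamma receptor, was the riser of the list, from 19.4, 23.3 and 27.98 CPM to 36.5, 48.7 and 56.8 CPM (1.07 ± 0.12), and differed from placebo by 1.062 ± 0.17 (adjusted p = 0.000868).

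The feedback inhibitors SOCS1 (-1.39 ± 0.13) and SOCS3 fell. SOCS3, which also limits signalling by interleukin-6, was at 45.02, 80.8 and 87.3 CPM and then at 9.57, 10.4 and 14.2 CPM in the wIFN-α animals. In placebo it was at 22.97, 29.2, 40.5, 42.7 and 49.8 CPM and then at 11.4, 16.2, 15.9, 11.3 and 9.89 CPM, so that it fell in all 11 animals. The placebo fall of -1.49 ± 0.20 was called (adjusted p = 0.0112), and the wIFN-α fall of -2.71 ± 0.19 differed from it by -1.22 ± 0.26 (adjusted p = 0.00601). STAT3 likewise fell in both groups (-1.28 ± 0.13 in wIFN-α and -0.81 ± 0.14 in placebo), and its difference of -0.47 ± 0.19 was not called (adjusted p = 0.0865). STAT3 in placebo (without F1016, F1019, M1005 or M1011, range -0.99 to -0.71) changed its call with 1 animal left out.

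**Figure D2:**
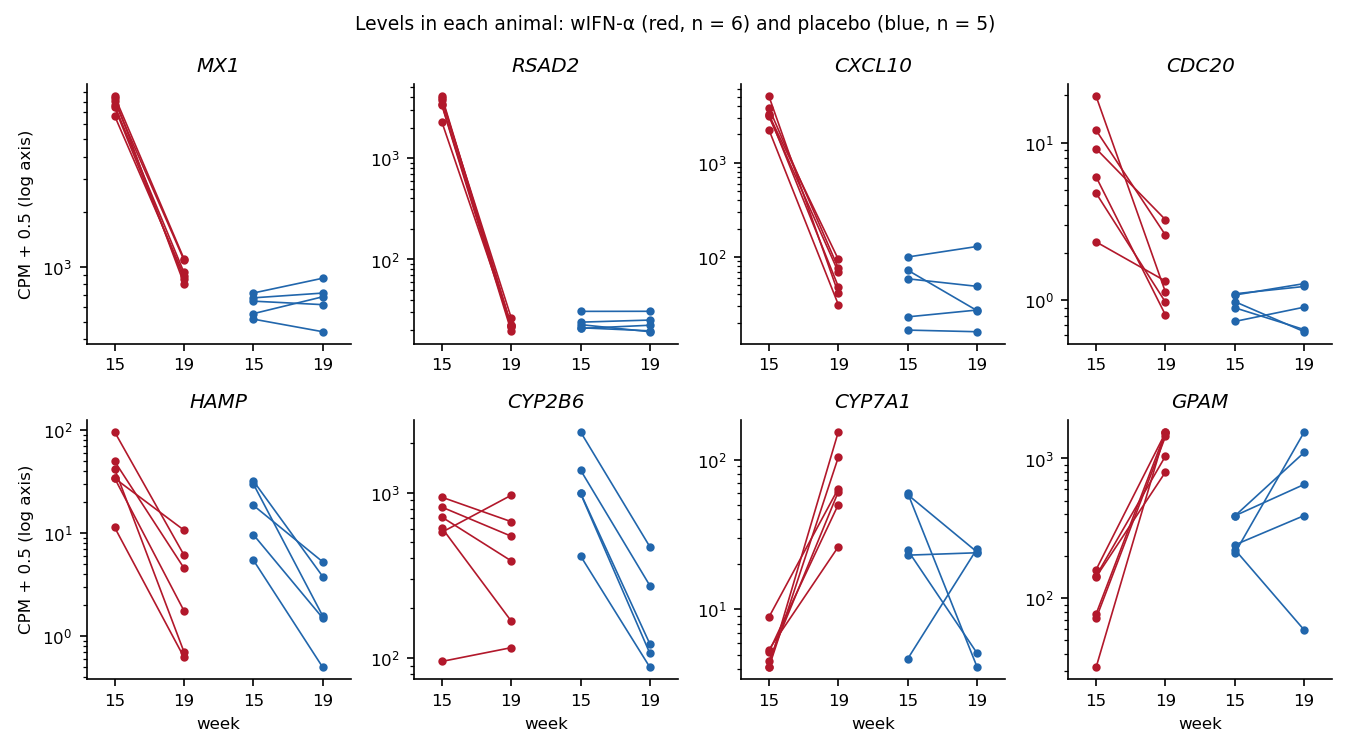
Each line joins the week 15 and week 19 biopsies of 1 animal for 8 genes, with CPM + 0.5 on a log axis, the 6 wIFN-α animals in red and the 5 placebo animals in blue. MX1, RSAD2, CXCL10 and CDC20 are lower at week 19 in every wIFN-α animal, HAMP is lower in every animal of both groups, CYP2B6 is lower in every placebo animal, and CYP7A1 and GPAM are higher in every wIFN-α animal with placebo lines in both directions.

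Among genes induced by interferon gamma and chemokines, 17 of 20 fell, with a median of -1.85 against 0.03 in placebo, and the same number differed from placebo. CXCL10, which draws CXCR3-bearing T cells, fell from 2234, 3229.7 and 5059 CPM to 30.8, 58.4 and 93.9 CPM (-5.90 ± 0.30, 59.9-fold, adjusted p = 1.65e-08). Its placebo values were 58.2, 22.7, 16.3, 99.4 and 71.9 CPM at week 15 and 48.3, 26.9, 15.6, 129 and 26.5 CPM at week 19, and the week 19 values of both groups overlapped. Its relatives CXCL9 (-2.57 ± 0.33) and CXCL11 (-4.02 ± 0.47), the guanylate-binding proteins GBP1 (-4.65 ± 0.20), GBP2 (-4.04 ± 0.14) and GBP4 (-3.66 ± 0.21), and the tryptophan-degrading enzyme IDO1 (-3.72 ± 0.40) also fell. PLA2G2A, a secreted phospholipase, was called lower (-3.02 ± 0.74) with overlapping weeks, and its difference from placebo was not called (-3.17 ± 1.16, adjusted p = 0.0644). IFNG itself was barely detected, at 0 to 0.657 CPM at week 15 and 0.0257 to 0.549 CPM at week 19 (70 and 39 reads in all), and was not called (-1.02 ± 0.56, adjusted p = 0.165). CIITA (-0.40 ± 0.14), CCL5 (-0.28 ± 0.15) and CXCR3 (-0.55 ± 0.35) were not called. PLA2G2A in the difference (without F1013, F1018 or M1011, range -3.88 to -2.46) changed its call with 1 animal left out.

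The genes of antigen presentation split by class. Of 21 class I genes, 19 fell and none rose (median -1.77, placebo 0.06), whereas of 11 class II genes 1 fell (median -0.28, placebo 0.34). The difference between both lists was not tested. TAP1, a chain of the peptide transporter, fell from 303, 375 and 448 CPM to 24.7, 44.1 and 77.3 CPM (-3.03 ± 0.27, adjusted p = 2.26e-06), and placebo read 57.3, 23.1, 18.1, 92.6 and 50.5 CPM and 65.6, 31.6, 18.9, 121 and 18.1 CPM. The weeks were separate in wIFN-α, and among the placebo animals M1008 was highest at both weeks. The immunoproteasome subunits PSMB8 (-2.11 ± 0.24), PSMB9 (-2.41 ± 0.28) and PSMB10 (-2.02 ± 0.17) and the class I transactivator NLRC5 (-2.47 ± 0.16) fell. The entries HLA-B, HLA-C, HLA-E, HLA-F and HLA-G changed by -1.89, -1.81, -1.75, -1.77 and -1.78, and since woodchuck class I genes named after near-identical human genes may share reads they cannot be read as separate genes. CALR (0.47 ± 0.12) and PDIA3 (-0.42 ± 0.12), which help to load peptide, were not called. In class II, CTSS (cathepsin S) was called (-0.61 ± 0.16) and was no longer called without F1014, F1022 or M1003, while HLA-DRA (-0.22 ± 0.24) and CD74 (-0.15 ± 0.21) were not. Over the fits without 1 animal the CTSS value ranged from -0.74 to -0.50, and the count of class II genes called lower was 2 without M1011. Against placebo 18 class I genes differed downward (17 without F1016, 19 without F1013). In class II 1 gene differed downward, 7 without M1011 and 2 without F1018. That class II count was 0 without F1014, F1022, M1003, F1016, F1019, M1005 or M1008.

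Markers of T cells were mostly not called: 3 of 19 fell, namely CD3E (-1.23 ± 0.12), TBX21 (-1.05 ± 0.29) and LCK (-0.63 ± 0.22), with a median of -0.49 (placebo 0.46). That share of 15.8% was near the 13.5% of all genes tested that were called lower. Without F1013, 11 were called lower. Against placebo 4 of 19 differed downward, 7 without M1011 and 11 without F1013. That count was 1 without M1008 and 2 without F1014, F1022, M1003, F1019 or M1005. The fall of LCK was not called against placebo (-0.85, adjusted p = 0.0781, called without F1013 or M1011). CD8A stood at 3.43, 6.39 and 7.19 CPM and 2.54, 4.42 and 8.61 CPM, with overlapping weeks and a log2 change of -0.35 ± 0.24 (adjusted p = 0.249), and CD3D (-0.46 ± 0.24) and CD4 (0.19 ± 0.14) were not called. The median change of the list was highest in wIFN-α animal F1013 (0.66) and lowest in M1003 (-1.13). Summed T cell reads were higher at week 19 in 1 of 6 wIFN-α and in 5 of 5 placebo animals. LCK (without F1014, F1018, F1022 or M1003, range -0.80 to -0.45), CD3D (without F1013, range -0.71 to -0.28) and CD8A (without F1013, range -0.59 to -0.15) changed their calls with 1 animal left out.

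Of 18 cytotoxic and NK cell genes, 7 fell (median -0.65, placebo 0.38). They were PRF1 (-1.41 ± 0.33), which forms pores in target cells, the granzymes GZMA (-1.90 ± 0.28), GZMB (-1.33 ± 0.31) and GZMH (-1.59 ± 0.26), the death ligand FASLG (-1.81 ± 0.29), the NK receptor KLRD1 (-0.76 ± 0.11) and the chemokine XCL1 (-0.70 ± 0.24). GZMA, the largest of these falls, went from 2.11, 3.86 and 9.54 CPM to 0.541, 0.875 and 2.399 CPM, lower in 6 of 6 although the ranges overlapped, and read 1.31, 0.974, 0.6700, 1.17 and 1.33 CPM and 2.04, 0.6098, 1.47, 1.95 and 1.07 CPM in placebo. GZMK (0.42 ± 0.47), FCGR3A (-0.03 ± 0.19), KLRK1 (-0.47 ± 0.26) and NCAM1 (-0.60 ± 1.17) were not called, and neither was the difference from placebo of GZMB (-1.05, adjusted p = 0.111, called without M1012). In the animals with a shared lane, 5 of these genes and 3 T cell genes were called lower. XCL1 (without F1014, F1018, F1022 or M1003, range -0.81 to -0.59) changed its call with 1 animal left out.

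Among checkpoint and regulatory genes, 6 of 12 fell (median -0.60, placebo 0.09). CD274, which encodes PD-L1, fell from 10.7, 13.7 and 14.8 CPM to 2.39, 2.73 and 4.07 CPM (-2.16 ± 0.17, 4.47-fold, adjusted p = 8.94e-07). Placebo CD274 read 1.16, 1.56, 1.55, 3.69 and 2.92 CPM and then 1.897, 2.56, 3.003, 5.13 and 1.99 CPM, higher at week 19 in 4 of 5 animals, with a change that was not called (0.46 ± 0.19, adjusted p = 0.283). The wIFN-α weeks did not overlap, and the week 19 values lay within the placebo range. LGALS9, the gene of galectin 9 (-2.62 ± 0.11), LAG3, an inhibitory receptor of T cells (-1.62 ± 0.19), and PDCD1LG2 (-1.32 ± 0.33) fell. PDCD1, the receptor PD-1, was called lower (-0.91 ± 0.33), as was the regulatory T cell factor FOXP3 (-0.64 ± 0.22). PDCD1 was not called without F1014, F1018, F1022, M1003 or F1016 (range over all fits without 1 animal -1.15 to -0.70), and FOXP3 not without F1014, F1022 or M1012 (-0.73 to -0.50). CTLA4 (-0.56 ± 0.43), IL10 (0.04 ± 0.07) and TGFB1 (-0.37 ± 0.15) were not called. Set against placebo, 5 of 12 differed downward, 6 without F1013 and 3 without F1022, F1016, F1019 or M1008. No such call was made for PDCD1LG2 (-1.03, adjusted p = 0.169) and FOXP3 (-0.30, adjusted p = 0.553).

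Cell death genes fell in 11 of 17 cases and rose in 1 (median -0.76, placebo -0.13). TNFSF10 (TRAIL), a ligand that can kill cells through death receptors, fell from 345, 419 and 463 CPM to 48.4, 62.3 and 74.2 CPM (-2.77 ± 0.11, adjusted p = 1.83e-09), and placebo lay at 56.8 to 83.7 CPM. The receptor FAS (-1.57 ± 0.11), the necroptosis effector MLKL (-3.92 ± 0.09), the pore-forming BAK1 (-2.56 ± 0.12) and the caspases CASP1 (-2.23 ± 0.19) and CASP4 (-2.45 ± 0.18) fell as well. TNFRSF10A, a receptor for TRAIL, was called higher (0.60 ± 0.13) and TNFRSF10B was not called (0.28 ± 0.14). TNFRSF10A (without M1003, range 0.55 to 0.63) changed its call with 1 animal left out.

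Neutrophil genes fell in 9 of 15 cases (median -1.26, placebo 0.20), and their summed reads were lower at week 19 in 6 of 6 wIFN-α animals and higher in 4 of 5 placebo animals. CSF3R, the receptor for granulocyte colony-stimulating factor, fell from 5.103, 9.596 and 21.1 CPM to 0.385, 0.769 and 1.94 CPM (-3.49 ± 0.26, adjusted p = 5.96e-07), with no overlap between weeks, while placebo read 1.38, 0.738, 2.01, 1.61 and 1.53 CPM and 1.61, 0.813, 1.401, 1.86 and 0.805 CPM. S100A8 (-1.63 ± 0.45), S100A9 (-2.03 ± 0.35), S100A12 (-2.13 ± 0.51) and CXCR1 (-2.13 ± 0.40) fell, and the granule genes MPO (-0.35 ± 0.27), ELANE (-0.70 ± 0.51) and CAMP (-0.02 ± 0.28) were not called. The difference from placebo was called downward for 8 of 15. That count was 4 without F1016, 5 without F1013, F1022, M1003, F1019, M1005 or M1008, and 9 without F1018. It was 4 without F1022 and M1008 together. In the animals with a shared lane 3 neutrophil genes were called lower and 0 differed from placebo.

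Of 15 macrophage genes, LYZ (lysozyme) was called lower (-0.80 ± 0.24), and not without M1003 (-0.58), while CD68 (-0.19 ± 0.09), CD163 (0.25 ± 0.45), MARCO (0.07 ± 0.18) and VSIG4 (0.01 ± 0.11) were not called and the median was -0.06. The count of macrophage genes called lower was 2 without M1008, 3 without F1014 and 4 without F1013 or M1012. Against placebo 5 of 15 differed downward (3 without F1019) and 1 upward, and among the former were LYZ (-1.17, adjusted p = 0.0338, not called without F1014, F1022, M1003, F1016, F1019, M1005 or M1008), TIMD4 (-0.77, adjusted p = 0.0154) and C1QC (-0.83, adjusted p = 0.0188, not called without F1019). Of 12 B and plasma cell genes 4 fell and 1 rose (median -0.52, placebo 0.48). The falls were those of FCRL5 (-1.77 ± 0.16), the inhibitory receptor CD22 (-1.64 ± 0.24), BLK (-0.81 ± 0.30) and MS4A1, which encodes CD20 (-1.26 ± 0.47). MS4A1 was not called without F1013, F1014, F1022, M1003 or F1016, with values over all such fits from -1.55 to -0.99. POU2AF1, a coactivator of B cells, was called higher in both groups (0.83 ± 0.16 in wIFN-α and 1.00 ± 0.18 in placebo), and CD79A (-0.31 ± 0.33) and the joining chain IGJ (-0.01 ± 0.27) were not called in wIFN-α. The count of B and plasma cell falls was 2 without F1014, F1022, M1003 or F1016, and 1 in the animals with a shared lane. No difference from placebo was called for BLK (-1.055, adjusted p = 0.116, called without F1018), MS4A1 (-1.90, adjusted p = 0.076, called without M1011) and POU2AF1 (-0.17, adjusted p = 0.656). BLK (without F1014, F1022, M1003, M1012, F1016 or F1019, range -1.07 to -0.66) and POU2AF1 in placebo (without F1018, F1022, M1012, F1016, F1019 or M1005, range 0.79 to 1.13) changed their calls with 1 animal left out.

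**Figure D3:**
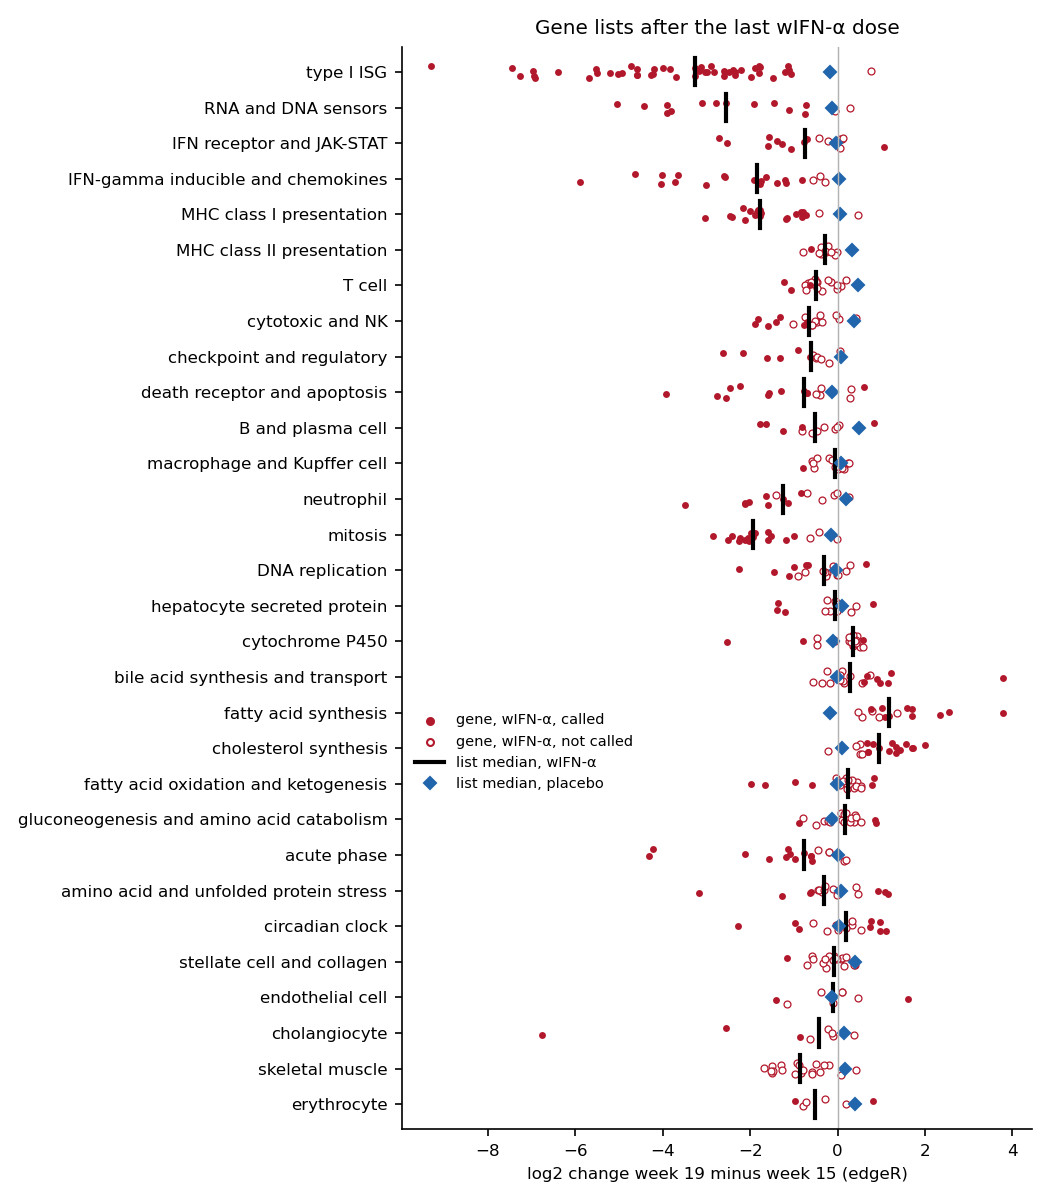
Each red point is 1 gene of a list, with its log2 change from week 15 to week 19 in the wIFN-α animals on the horizontal axis, filled where it was called. Black bars are list medians in wIFN-α and blue diamonds list medians in placebo, which lie between -0.17 and 0.48, whereas the wIFN-α medians run from -3.26 for type I ISGs to 1.17 for fatty acid synthesis.

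Genes of mitosis fell in 17 of 20 cases, with a median of -1.93 (placebo -0.15). CDC20, an activator of the anaphase-promoting complex, went from 1.85, 7.104 and 19.2 CPM to 0.308, 0.727 and 2.75 CPM (-2.84 ± 0.46, adjusted p = 0.000348), and read 0.582, 0.236, 0.482, 0.602 and 0.398 CPM and 0.778, 0.407, 0.133, 0.726 and 0.153 CPM in placebo. It was lower at week 19 in 6 of 6 wIFN-α animals although the ranges of both weeks overlapped, and every week 15 value of wIFN-α lay above every placebo value. The kinase CDK1 (-2.51 ± 0.42), its partner cyclins CCNB1 (-1.98 ± 0.38) and CCNB2 (-2.24 ± 0.47), TOP2A (-1.52 ± 0.44) and UBE2C (-2.43 ± 0.52) fell. MKI67, the gene of the proliferation marker Ki-67, fell from 8.98, 28.9 and 60.03 CPM to 8.58, 9.99 and 16.7 CPM (-1.19 ± 0.26, adjusted p = 0.00308), lower in 5 of 6. The size varied between animals, since the list's median ran from -2.99 in M1003 to -0.33 in F1014. The difference from placebo was called for 5 of 20. That count was 1 without F1016, F1019 or M1008, 2 without F1022, 3 without M1005, 8 without F1014 or M1011 and 10 without F1013, and 0 without F1022 and M1008 by edgeR (5 at an unadjusted p under 0.05). Among the falls named here it was not called for CCNB2 (-2.01, adjusted p = 0.0662, called without F1013), TOP2A (-1.51, adjusted p = 0.108), UBE2C (-2.22, adjusted p = 0.0673, called without F1014 or M1011) and MKI67 (-1.10, adjusted p = 0.0581, called without F1014). In the animals with a shared lane, 8 genes were called lower.

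Of 18 DNA replication genes 6 fell and 1 rose (median -0.32, placebo -0.04). CCNE2, a cyclin of entry into S phase, fell without overlap of the weeks (-2.27 ± 0.31), and its relative CCNE1 fell in both groups (-0.72 ± 0.23 in wIFN-α and -1.32 ± 0.25 in placebo). CDC45 (-1.46 ± 0.33) and MCM5 (-1.11 ± 0.30), parts of the replicative helicase, fell, RRM1, a chain of ribonucleotide reductase, was called higher (0.65 ± 0.13), and PCNA (-0.02 ± 0.12), MCM2 (0.20 ± 0.08) and CDC6 (0.01 ± 0.21) were not called. Differences from placebo were not called for CCNE1 (0.60, adjusted p = 0.216), CDC45 (-1.31, adjusted p = 0.0888, called without F1013), MCM5 (-1.08, adjusted p = 0.0983, called without F1013) and RRM1 (0.19, adjusted p = 0.515). CCNE1 (without F1014 or F1018, range -0.83 to -0.55), CCNE1 in placebo (without F1014, F1022, M1012, F1016, F1019, M1005, M1008 or M1011, range -1.52 to -1.16) and RRM1 (without F1014, range 0.52 to 0.73) changed their calls with 1 animal left out.

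Acute phase genes, which hepatocytes switch on in inflammation, fell in 12 of 17 cases and rose in none (median -0.77, placebo 0.01). Hepcidin (HAMP), the hormone that limits iron uptake, fell from 10.9, 37.6 and 95.5 CPM to 0.126, 2.67 and 10.2 CPM in wIFN-α (-4.22 ± 0.64, adjusted p = 0.000217). In placebo it moved from 29.5, 31.6, 9.17, 18.1 and 4.98 CPM to 1.07, 3.29, 1.001, 4.76 and 0 CPM. It was lower at week 19 in all 11 animals, the placebo change of -3.45 ± 0.71 had an adjusted p of 0.0516, and the difference of -0.77 ± 0.95 was not called (adjusted p = 0.604). HAMP in placebo (without F1014 or F1022, range -4.01 to -3.11) changed its call with 1 animal left out.

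SAA2, a serum amyloid A gene, fell from 83.8, 279 and 757 CPM to 7.02, 15.9 and 18.3 CPM (-4.31 ± 0.58), and stood at 42.7, 56.8, 36.7, 14.2 and 354 CPM and then 11.7, 21.2, 13.2, 10.1 and 19.96 CPM in placebo, lower in 5 of 5 but not called (-1.84 ± 0.58, adjusted p = 0.155). Its difference of -2.47 ± 0.79 was called (adjusted p = 0.0377). SAA1 and the readthrough entry SAA2-SAA4 share sequence with it, and SAA2-SAA4 fell in both groups (-5.84 ± 0.48 in wIFN-α and -4.50 ± 0.58 in placebo, difference -1.35 ± 0.80, adjusted p = 0.249). LBP, which carries bacterial lipopolysaccharide, fell from 1009, 1312 and 3480.1 CPM to 427, 472 and 609 CPM (-1.57 ± 0.20, adjusted p = 5.04e-05), while placebo read 582, 409, 495, 533 and 698 CPM and 456, 331, 353, 902 and 538 CPM, with M1008 highest at week 19. CRP (-1.12 ± 0.23), the haem carrier HPX (-1.10 ± 0.24), haptoglobin HP (-0.97 ± 0.23) and complement C3 (-0.60 ± 0.16) fell, and ORM1 (0.15 ± 0.12), ORM2 (0.20 ± 0.16) and SERPINA3 (-0.21 ± 0.13) were not called. The difference from placebo was called for 9 of 17, a count of 5 without F1016, F1019 or M1008 and of 5 without F1022 and M1008, but not for HP (-0.98, adjusted p = 0.0511, called without F1018 or M1011) and C3 (-0.67, adjusted p = 0.0564, called without F1018), and 5 genes were called lower in wIFN-α within the shared lanes. SAA2 in the difference (without F1013, F1014, F1022, M1012, F1016, F1019, M1005 or M1008, range -2.98 to -2.13), SAA2-SAA4 in the difference (without M1011, range -2.28 to -0.97) and C3 (without F1013 or F1014, range -0.70 to -0.46) changed their calls with 1 animal left out.

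Fibrinogen genes fell too among the 16 hepatocyte genes for secreted proteins, of which 25% were called, against 23.4% of all genes tested. FGA (-1.36 ± 0.30), FGB (-1.38 ± 0.32) and FGG (-1.21 ± 0.33), its 3 chains, fell, APOC3, an apolipoprotein that slows the clearance of triglyceride, rose (0.81 ± 0.17), and the list had a median of -0.05 with ALB at -0.06 ± 0.18 and APOB at -0.01 ± 0.09. The differences of the fibrinogen chains from placebo were not called (-0.85, -0.89 and -0.94, adjusted p = 0.177, 0.179 and 0.178).

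Genes of fatty acid and triglyceride synthesis rose: 10 of 15 were called higher and none lower, with a median of 1.17 (placebo -0.17), and in 8 the week 19 values all lay above those of week 15. GPAM, which adds the first fatty acid to glycerol phosphate, rose from 31.6, 109 and 159.7 CPM to 799.6, 1483 and 1549 CPM. In placebo it stood at 388, 389, 240.4, 222 and 210.0 CPM and then at 1105, 652, 390.1, 58.8 and 1547 CPM, higher in 4 of 5, with M1011 highest and M1008 lowest at week 19. The log2 change was 3.79 ± 0.57 (13.9-fold, adjusted p = 0.000198), against 0.85 ± 0.60 in placebo, and the difference of 2.94 ± 0.80 was called (adjusted p = 0.0192).

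The carboxylase ACACA, which makes malonyl-CoA, rose from 63.5, 144 and 207 CPM to 382, 686 and 849.8 CPM (2.35 ± 0.41), and DGAT2, the last enzyme of triglyceride synthesis, from 92.4, 200.1 and 288 CPM to 583, 1180.4 and 1855 CPM (2.56 ± 0.39). FASN, the fatty acid synthase, rose from 847, 3111 and 5041 CPM to 5156, 8603 and 12339 CPM (1.71 ± 0.57, adjusted p = 0.0276). Its placebo values were 5084, 4635, 3545, 2953 and 2681 CPM and then 5429, 5653, 2357, 188 and 9891 CPM, spread from M1008 to M1011 at week 19, and its difference of 1.99 ± 0.87 was not called (adjusted p = 0.116). ELOVL6 (1.58 ± 0.44), ACLY (1.70 ± 0.50) and MLXIPL, the glucose-responsive factor ChREBP (1.09 ± 0.19), rose, while the desaturase SCD (0.95 ± 0.49), PNPLA3 (1.35 ± 0.59) and SREBF1, the main activator of these genes (0.80 ± 0.34), were not called. Summed over the list, these genes took 0.914, 1.93 and 2.65% of reads at week 15 and 2.61, 4.36 and 5.36% at week 19 in wIFN-α, higher in 6 of 6, and 1.95, 2.23 and 2.91% and 0.178, 2.66 and 3.899% in placebo. The count of rises was 6 without F1014, 13 without M1008 and 1 in the animals with a shared lane, where the median stood at 1.16. The count of differences from placebo was 8, 5 without F1014, F1022 or F1019, and 3 without F1022 and M1008. It did not include ELOVL6 (1.93, adjusted p = 0.0545, called without F1018, M1008 or M1011) and ACLY (1.67, adjusted p = 0.123, called without M1011). FASN (without F1013, F1014, F1022 or M1003, range 1.43 to 1.94), FASN in the difference (without M1011, range 1.30 to 2.58), ACLY (without F1014, range 1.48 to 2.02), SCD (without M1008, range 0.80 to 1.08), PNPLA3 (without M1008, range 1.19 to 1.57) and SREBF1 (without M1008, range 0.63 to 0.91) changed their calls with 1 animal left out.

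Of 19 genes of cholesterol synthesis and uptake 14 rose and none fell (median 0.94, placebo 0.10). HMGCS1, an early enzyme of the pathway, rose from 77.3, 109 and 239 CPM to 374, 527 and 573 CPM (1.999 ± 0.34, adjusted p = 0.000475), and moved from 125, 157, 105, 93.4 and 150.1 CPM to 163, 265, 138, 66.3 and 555 CPM in placebo, with M1011 alone in the wIFN-α range of week 19. FDFT1 (1.73 ± 0.27), MVD (1.70 ± 0.45), SQLE (1.43 ± 0.42) and LSS (1.34 ± 0.28), later enzymes of the pathway, rose. IDI1 (-0.22 ± 0.33), SREBF2 (0.42 ± 0.07) and INSIG1 (0.51 ± 0.30) were not called. The difference from placebo was called for 8 genes. That count was 4 without F1014, F1019 or M1005, 5 without F1013, F1022, M1012, F1016 or M1008 and 15 without M1011, and 2 without F1022 and M1008, and it did not include MVD (1.70, adjusted p = 0.0837, called without M1011) and SQLE (1.57, adjusted p = 0.0892, called without M1011). In all, 5 genes were called higher in the animals with a shared lane. SQLE (without F1014, range 1.26 to 1.60) changed its call with 1 animal left out.

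In bile acid synthesis and transport, 7 of 19 rose and none fell (median 0.27, placebo -0.02). Against placebo 10 of the 19 differed upward (7 without F1014, 11 without M1012) and 4 downward (2 without F1016). CYP7A1, the rate-limiting enzyme that turns cholesterol into bile acid, stood at 3.61, 4.38 and 8.38 CPM at week 15 and at 25.7, 61.98 and 152 CPM at week 19. Placebo values were 57.8, 22.5, 24.3, 59.2 and 4.18 CPM and then 23.6, 23.4, 4.604, 3.63 and 24.9 CPM, lower in 3 of 5. All week 19 values of wIFN-α lay above those of week 15, whereas placebo animals moved in both directions. The log2 change was 3.78 ± 0.69 (13.8-fold, adjusted p = 0.000812), the placebo change was -1.07 ± 0.78, and the difference was 4.86 ± 1.04 (adjusted p = 0.00556). KLB, the co-receptor through which FGF19 represses CYP7A1, rose from 45.8, 87.7 and 101 CPM to 132, 159 and 315 CPM (1.21 ± 0.19). The sterol exporter ABCG5 (1.16 ± 0.20), the bile salt export pump ABCB11 (0.91 ± 0.16), the conjugating enzyme BAAT (0.98 ± 0.11), CYP27A1 (0.68 ± 0.17) and the bile salt importer SLC10A1 (0.61 ± 0.11) rose. The bile acid receptor NR1H4 (-0.56 ± 0.12) and its target NR0B2 (0.05 ± 0.26) were not called, and the same was true of ABCC2 (0.05 ± 0.11). The rise of 1 of these genes was not called against placebo, SLC10A1 (0.44, adjusted p = 0.0548, called without F1013, M1012 or M1008). In the animals with a shared lane 4 genes of the list were called higher and 1 lower. CYP27A1 (without F1014, range 0.57 to 0.79), SLC10A1 (without F1018 or M1003, range 0.55 to 0.68) and NR1H4 (without M1003 or M1012, range -0.65 to -0.45) changed their calls with 1 animal left out.

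Of the cytochrome P450 genes, 1 of 20 was called higher and 2 lower within the wIFN-α animals (median 0.35), a share of 15% against 23.4% of all genes tested. Against the placebo change 9 differed upward and 2 downward (placebo median -0.10), by the rule without a fold threshold. CYP2B6, which oxidizes many drugs, stood at 94.9, 662 and 938 CPM and 115, 466 and 963 CPM in wIFN-α, lower in 4 of 6 and not called (-0.46 ± 0.28, adjusted p = 0.194). In placebo it fell in 5 of 5, from 1369, 994, 988, 414 and 2329.7 CPM to 273, 121, 106, 87.4 and 469.9 CPM. The placebo fall of -2.62 ± 0.31 (6.17-fold) was called (adjusted p = 0.00591), as was the difference of 2.16 ± 0.41 (adjusted p = 0.00259). CYP2A6 had a placebo change of -1.58 ± 0.34 (adjusted p = 0.0609) and a wIFN-α change of 0.43 ± 0.31, and as a member of a family of similar genes it may share reads with others. CYP2R1, a vitamin D 25-hydroxylase, fell in wIFN-α without overlap of the weeks (-2.53 ± 0.17), and CYP3A4 (0.43 ± 0.15) and CYP2E1 (-0.06 ± 0.19) were not called. CYP1A1 was called (0.59 ± 0.11), and not without F1022, M1003 or M1008 (over all fits without 1 animal 0.54 to 0.62), and the count of rises was 2 without F1018, M1012, F1016, M1005 or M1011. CYP2B6 (without M1003, range -0.71 to -0.19) and CYP2A6 in placebo (without M1003, range -1.81 to -1.36) changed their calls with 1 animal left out.

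Fatty acid oxidation genes had a median of 0.23, with 2 of 20 higher, the factor PPARA (0.78 ± 0.08) and BDH1 (0.83 ± 0.11), and 4 lower. The latter were the fasting hormone FGF21 (-1.99 ± 0.64), ANGPTL4 (-1.66 ± 0.34), PPARGC1A (-0.59 ± 0.19) and CPT1A, the gate of mitochondrial import (-0.98 ± 0.30). FGF21 went from 0.785, 2.88 and 5.32 CPM to 0.106, 0.3005 and 7.81 CPM, lower in 5 of 6, and was not called without F1013, F1014, F1018 or F1022 (over all fits without 1 animal -2.63 to -1.59). CPT1A was not called without F1013 (-0.79). ANGPTL4 changed by -1.37 ± 0.39 in placebo, lower in 4 of 5. The difference from placebo was called upward for 6 of the 20 genes, and for none of the 4 falls, namely FGF21 (-1.94, adjusted p = 0.163, called without M1012), ANGPTL4 (-0.29, adjusted p = 0.724), PPARGC1A (-0.59, adjusted p = 0.148, called without M1011) and CPT1A (-0.80, adjusted p = 0.219). The count of falls was 2 without F1013, F1014 or F1022, and that of rises 4 without M1012. Of 20 genes of gluconeogenesis and amino acid catabolism, 2 rose, GLS2 (0.85 ± 0.12) among them, and 1 fell, namely G6PC, the last enzyme of glucose output (-0.88 ± 0.16). The share called in this list, 15%, was below the 23.4% of all genes tested. PCK1 (-0.79 ± 0.48) was not called. In placebo 2 of the 20 genes fell, the median of the list was below 0 in 5 of 5 animals, and 8 genes differed upward from placebo (5 without F1014 or M1005), GLS2 among them (0.88 ± 0.18), while no difference was called for G6PC (-0.57, adjusted p = 0.0954, called without M1011). CPS1, the first enzyme of the urea cycle, was also among the 8: it fell in placebo (-0.60 ± 0.10) and not in wIFN-α (0.14 ± 0.09), with a difference of 0.75 ± 0.14 (adjusted p = 0.0021). PPARGC1A (without F1014, F1022, M1003 or M1012, range -0.75 to -0.51) and CPS1 in placebo (without F1016, F1019, M1005 or M1011, range -0.67 to -0.54) changed their calls with 1 animal left out.

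Among stress genes 4 of 16 fell and 3 rose (median -0.30). The count of falls was 2 without F1013, F1014 or F1022, and against placebo 1 gene differed downward (2 without F1018) and 2 upward (1 without F1013, F1014, F1022, M1003, F1016, F1019, M1005 or M1008). ATF3, an early stress factor, fell from 27.00, 41.99 and 51.1 CPM to 3.01, 4.62 and 5.38 CPM (-3.17 ± 0.40, adjusted p = 5.76e-05), and placebo read 2.88, 2.07, 3.97, 3.45 and 21.8 CPM and 2.38, 5.37, 8.27, 5.26 and 3.26 CPM, with M1011 apart at week 15. XBP1 (-1.27 ± 0.25) and ASNS (-0.62 ± 0.23) fell, the serine synthesis genes PSAT1 (1.09 ± 0.15) and PHGDH (0.93 ± 0.19) rose with ATF5 (1.16 ± 0.22), and the chaperone HSPA5 (-0.11 ± 0.24) was not called. Differences from placebo were not called for XBP1 (-0.52, adjusted p = 0.333), ASNS (-0.57, adjusted p = 0.252) and ATF5 (0.93, adjusted p = 0.054, called without F1018 or M1011). Of 17 clock genes 5 were higher and 3 lower, and the count of lower genes was 1 without F1014 or F1018. Against placebo 2 differed upward (1 without F1014, F1022, M1003, F1019, M1005 or M1008 and 4 without M1012 or M1011), and the calls did not include NFIL3 (-1.07, adjusted p = 0.129, called without M1012), ARNTL (0.26, adjusted p = 0.737) and BHLHE40 (-1.20, adjusted p = 0.134, called without M1011). NFIL3 fell (-2.29 ± 0.34) and ARNTL, the core activator of the clock, rose (1.10 ± 0.31), with placebo changes of -1.22 ± 0.36 and 0.84 ± 0.35, and PER1 (-0.25 ± 0.22) and DBP (0.01 ± 0.29) were not called. BHLHE40 (-0.98 ± 0.36) lost its call without F1013, F1014, F1018, F1022, M1003, F1016 or M1005 (over all such fits -1.19 to -0.79). The hour of each biopsy was not given in the sources used here. ASNS (without F1013, F1014, F1018, F1022, M1003, F1016, F1019 or M1005, range -0.79 to -0.46) changed its call with 1 animal left out.

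Of 18 stellate cell and collagen genes TIMP1, an inhibitor of matrix proteases, fell (-1.15 ± 0.29). Its difference from placebo was not called (-1.29, adjusted p = 0.0503, called without F1013 or M1011). COL1A1 (-0.59 ± 0.66), COL3A1 (0.15 ± 0.32) and ACTA2 (-0.69 ± 0.45) were not called. Against placebo 1 gene of this list differed downward, 6 without M1011, 2 without F1013 and 0 without any other animal. Of 9 endothelial genes KDR, the main receptor for VEGF, rose from 6.11, 10.4 and 21.3 CPM to 23.6, 34.4 and 45.3 CPM (1.61 ± 0.14, adjusted p = 2.66e-06), and placebo stood at 36.5, 32.8, 37.4, 62.3 and 27.2 CPM and 31.9, 45.2, 37.2, 45.9 and 22.6 CPM, so that the wIFN-α values were below those of placebo at week 15 and overlapped them at week 19. LYVE1, a hyaluronan receptor, fell (-1.41 ± 0.16), the one endothelial gene called lower (2 without M1011), and PECAM1 (-0.39 ± 0.15) and VWF (0.09 ± 0.43) were not called. The share of endothelial genes called, 22.2%, was near the 23.4% of all genes tested.

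Of 8 cholangiocyte genes 3 fell. Among them, CLDN4, a tight junction protein, went from 1.55, 2.23 and 6.999 CPM to 0.206, 0.492 and 0.826 CPM (-2.54 ± 0.36), and SOX9 changed by -0.85 ± 0.12. The keratins KRT7 (-0.11 ± 0.32) and KRT19 (-0.22 ± 0.25), EPCAM (-0.63 ± 0.27) and CFTR (0.38 ± 0.29), which mark bile duct cells, were not called. EPCAM (without F1018, range -0.84 to -0.42) changed its call with 1 animal left out.

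No skeletal muscle gene of 20 was called, and the median of that list ran from -6.03 in M1012 to 7.01 in F1013 between single animals. In the animals with a shared lane, 2 of its genes were called higher in wIFN-α and 5 lower in placebo (placebo median -4.05). There, 7 muscle genes differed upward from placebo (median difference 4.51), so that muscle content enters the counts of that setting. Of 6 red cell genes HBA1 was called lower (-0.98 ± 0.36) and 1 gene was called higher, and HBA1 lost its call without F1013, F1014, M1003, M1012, F1016 or F1019 (over all such fits -1.24 to -0.70). Its difference from placebo was not called: HBA1 (-1.54, adjusted p = 0.0508, called without F1018, M1005 or M1011). HBA1 and HBA2 are near-identical and share reads.

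**Figure D4:**
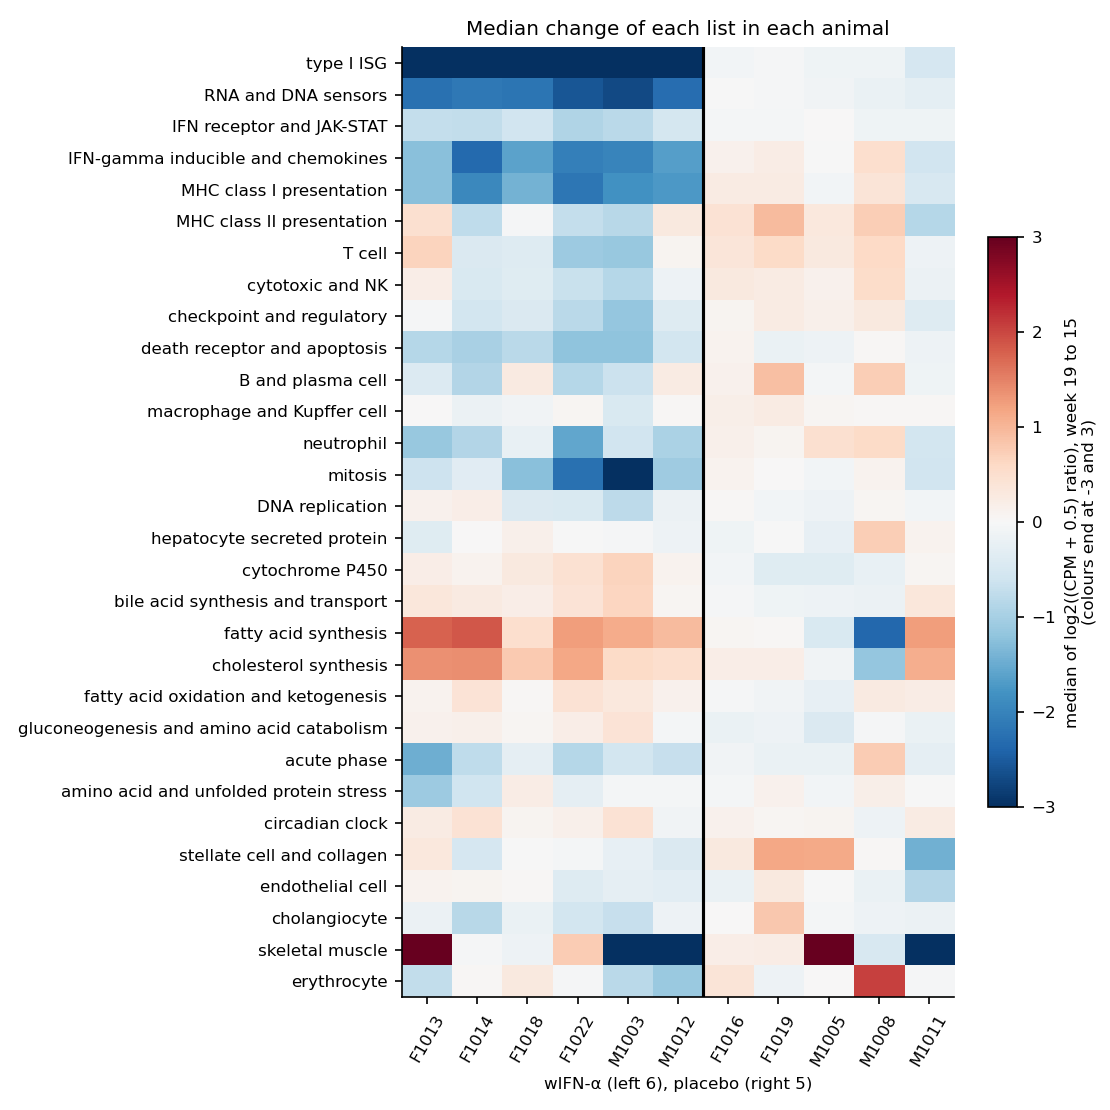
Each cell is the median log2 change of a list in 1 animal, computed on CPM + 0.5, blue where week 19 was lower and red where it was higher, with the 6 wIFN-α animals left of the line and the 5 placebo animals right of it. Type I ISGs, sensors and class I genes are lower in each wIFN-α animal, mitosis ranges from -2.99 in M1003 to -0.33 in F1014, fatty acid synthesis is higher in each wIFN-α animal and runs from -2.35 in M1008 to 1.26 in M1011 in placebo, and the muscle list changes sign between animals.

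Beyond these lists, the largest changes in 6 of 6 wIFN-α animals were named by size. TMPRSS2, a membrane serine protease, fell from 65.9, 188 and 485 CPM to 0.617, 1.23 and 1.42 CPM, and read 0.874, 1.83, 1.45, 2.26 and 0.199 CPM and 0.681, 1.91, 1.001, 0.908 and 0.728 CPM in placebo. Its week 19 values lay within the range of the placebo biopsies, and its log2 change was -7.53 ± 0.44 (adjusted p = 5.6e-08). The uncharacterized entry LOC100129473 stood at 34.8 to 46.2 CPM at week 15 and at 0.133 to 0.316 CPM at week 19 (-7.47 ± 0.28). OCM2, named after a calcium-binding protein, and LOC100505856 had 439 and 361 reads over the 6 animals at week 15 and 2 and 1 at week 19, too few for a fitted fold to be read.

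Among the rises, CYP26B1 and CYP26A1, enzymes that degrade retinoic acid, went from 0.127, 0.744 and 1.38 CPM to 4.16, 8.75 and 24.03 CPM and from 1.27, 5.21 and 11.4 CPM to 15.1, 41.01 and 107 CPM. The log2 changes were 3.99 ± 0.62 and 3.25 ± 0.60 (adjusted p = 0.000261 and 0.000934). In placebo both were higher at week 19 in 4 of 5 animals and lower in M1008, with changes of 0.63 ± 0.61 and 1.07 ± 0.68, and the difference was called for CYP26B1 (3.36 ± 0.85, adjusted p = 0.0139) and not for CYP26A1 (2.18 ± 0.88, adjusted p = 0.09). AACS, which activates acetoacetate for lipid synthesis, rose by 3.71 ± 0.72, MOGAT2, an acyltransferase of triglyceride synthesis, by 3.53 ± 0.47, and ADAMTS14, a protease that trims procollagen, by 3.93 ± 0.34. FIBCD1 (3.37 ± 0.83), BEND3 (3.26 ± 0.43), EPN3 (3.23 ± 0.56), DSG3 (3.08 ± 0.56) and LOC400655 (3.28 ± 0.48) completed the rises named by this rule together with GPAM and CYP7A1. Of these, FIBCD1 (3.34, adjusted p = 0.0735, called without M1011) and EPN3 (2.004, adjusted p = 0.0978, called without M1011) were not called in the difference from placebo, where EPN3 changed by 1.23 ± 0.64, higher in 4 of 5. FABP5, a fatty acid carrier, was among the largest positive differences from placebo (3.80 ± 0.67, adjusted p = 0.00161), with 0.855, 4.06 and 7.62 CPM at week 15, 6.88, 36.8 and 71.1 CPM at week 19 and a change of 2.95 ± 0.46. FABP5 has processed copies that may share its reads. CYP26A1 in the difference (without M1008 or M1011, range 1.46 to 2.66) changed its call with 1 animal left out.

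Some genes moved in the placebo animals over the same 4 weeks. Of the 65 genes called there, 36 were also called in wIFN-α, with 23 lower in both groups, 11 higher in both and 2 in opposite directions. TFRC, the transferrin receptor through which cells take up iron, rose from 19.3, 41.04, 35.7, 33.03 and 47.3 CPM to 63.3, 74.1, 87.4, 47.9 and 126 CPM in placebo (1.16 ± 0.17, adjusted p = 0.0159). It also rose in the wIFN-α animals, from 14.8, 26.7 and 56.6 CPM to 49.2, 98.96 and 165 CPM (1.74 ± 0.15), higher in all 11 animals. The difference of 0.58 ± 0.22 was not called (adjusted p = 0.0804). LCN12, a retinoid-binding lipocalin, rose by 1.18 ± 0.17 in placebo and by 2.57 ± 0.17 in wIFN-α, FSTL5 by 2.23 ± 0.24 and 1.503 ± 0.21, and the organic anion transporter SLC22A7 by 1.42 ± 0.22 and 0.70 ± 0.20, the last being called in wIFN-α in each fit without 1 animal except that without F1018 (0.48). Differences from the placebo rise were not called for FSTL5 (-0.73, adjusted p = 0.114) and SLC22A7 (-0.73, adjusted p = 0.088, called without F1018). TFRC in placebo (without F1016, F1019 or M1005, range 1.02 to 1.31), TFRC in the difference (without F1016, range 0.41 to 0.72), LCN12 in placebo (without F1019, range 1.07 to 1.33) and SLC22A7 in placebo (without F1016, F1019 or M1005, range 1.23 to 1.49) changed their calls with 1 animal left out.

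GPC3, a fetal liver proteoglycan, rose in placebo, from 2.88, 10.6, 5.95, 21.7 and 5.64 CPM to 5.98, 49.5, 12.3, 61.9 and 10.6 CPM (1.38 ± 0.18), and the difference from wIFN-α (0.21 ± 0.16, not called) was -1.17 ± 0.25 (adjusted p = 0.00502). Falls in both groups were those of the metallothionein entry MT1IP (-2.63 ± 0.49 in placebo and -4.17 ± 0.53 in wIFN-α) and the chemokine CXCL3 (-1.88 ± 0.32 and -2.77 ± 0.29), with no called difference (adjusted p = 0.144 and 0.146). KCTD14 fell in placebo (-2.13 ± 0.25) and in wIFN-α (-0.74 ± 0.21), where it lost its call without F1022 (-0.62), and the difference of 1.38 ± 0.33 was called (adjusted p = 0.0098). The placebo count of 65 was sensitive to single animals, at 10 without F1019, 11 without M1005, 16 without F1016 and 91 without F1013. MT1IP in placebo (without F1014, F1018, M1012, F1016, F1019, M1005 or M1008, range -2.96 to -2.05), MT1IP in the difference (without M1011, range -2.15 to -0.99), CXCL3 in placebo (without F1016, F1019 or M1005, range -2.16 to -1.48) and CXCL3 in the difference (without M1011, range -1.29 to -0.62) changed their calls with 1 animal left out.

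Reads on the entry of the virus genome were scaled by the reads on genes to give RPM values, the CPM analogue for this entry, and kept out of the gene tests. At week 15 they stood at 13870 (F1013), 22823 (F1014), 6788 (F1018), 2291 (F1022), 4600 (M1003) and 21561 (M1012) RPM in the wIFN-α animals. At week 19 they stood at 12711, 33501, 11216, 377, 16355 and 30630 RPM in the same order. The virus entry was thus higher at week 19 in 4 of 6 animals, lower by a small amount in F1013 and 6.07-fold lower in F1022, and highest in ratio in M1003 (3.56-fold).

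The mean log2 change was 0.15 ± 1.49 (SD, n = 6), with an exact two-sided sign-flip permutation p of 0.8125. In placebo the virus entry went from 17885.5 to 19155 RPM in F1016, from 26847 to 24724 RPM in F1019, from 28648 to 28276 RPM in M1005, from 22846 to 20464 RPM in M1008 and from 26487 to 30072 RPM in M1011. Each placebo change was smaller than the SD of the wIFN-α changes, with a mean log2 change of -0.0029 ± 0.144 (SD, n = 5, exact permutation p = 1, where 5 animals cannot reach 0.05). The mean changes differed by 0.15 (exact permutation of the agent labels over 462 splits, p = 0.844). That difference was 0.70 without F1022 (exact permutation p = 0.0397), -0.19 without M1003 (p = 0.968) and 0.12 with the deepest run of each biopsy. Each of the 11 animals was left out in turn with no adjustment for the number of fits. Apart from the fit without F1022, the animal with the largest fall, these exact permutation p-values ran from 0.81 to 0.976. The 2 runs of F1022 at week 19, whose gene counts differed, gave 378 and 377 RPM, and those of M1008 at week 15 gave 20496 and 26942 RPM. Poly(A) selection and the reference used decide which viral RNA is counted, so that these values are not a measure of virus in serum.

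**Figure D5:**
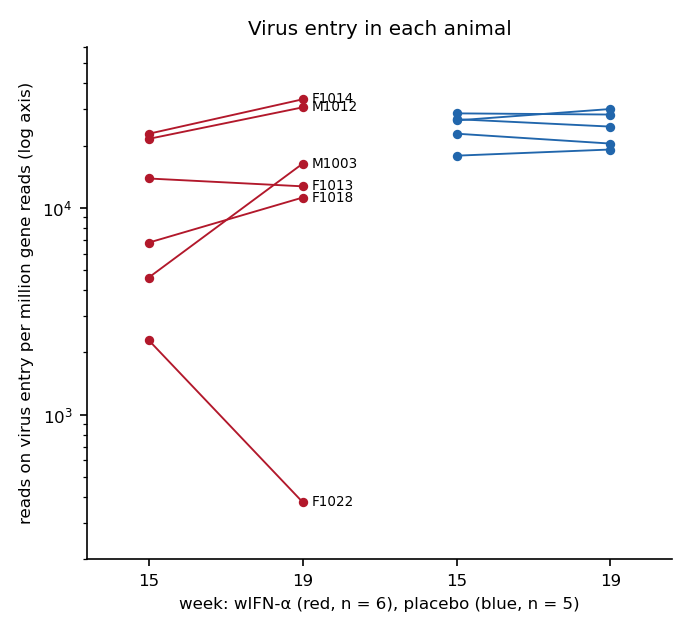
Each line joins the week 15 and week 19 reads on the virus entry of 1 animal, in RPM on a log axis, with wIFN-α animals in red and placebo animals in blue. The placebo lines stay between 17885.5 and 30072 RPM, while wIFN-α lines run from 377 RPM in F1022 to 33501 RPM in F1014 at week 19.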

How the data were processed

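Liver poly(A) RNA was sequenced by the authors as 50-base paired reads (TruSeq, no strand stated), and per the labels Bowtie2, SAMtools, CASAVA, FastQC and DESeq were used. The deposited files give per gene an expected count, made by the authors before deposit, of which 118 of 3368022 nonzero entries were fractional, and an RPKM value, also by the authors, scaled by gene length and depth and used here only to check the columns. Woodchuck transcripts carry the symbols of human genes, so that close relatives may share reads.

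Counts of the 29 runs used were summed per biopsy and rounded, the virus entry was set aside, and low genes were removed (filterByExpr), which left 15389 of 17587 symbols. edgeR 4.0.16 (TMM, quasi-likelihood, R 4.3.3) fitted the 22 biopsies with the animal as a block and a week effect for each agent, with 9 residual degrees of freedom. Log2 changes are given ± SE, where SE is the absolute log2 change divided by the square root of the test's F statistic. It is not an error estimated by the fit itself, and for genes with few reads it can be too small. P-values were adjusted by Benjamini-Hochberg over all genes tested. The labels give both biopsies of a pair the same animal number. Their deviations from the group means correlated above 0.1 in 6 of 11 animals, with a median r of 0.476 and a range from -0.275 (F1013) to 0.709 (F1022). The median r between animals was -0.110, but deviations from a mean cancel within a group, which by itself pushes that value negative. On simulated data edgeR recovered 87 of 100 genes changed 2-fold and 99 of 100 changed 4-fold in the wIFN-α change, with 4 unchanged genes called, and 59 and 94 of 100 in the difference, with 9 others called.

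The members and the 30 gene lists were chosen with earlier results of these data known. Of 539 list genes, 531 were in the files and 518 were tested. The rule for named genes took the 12 largest falls and rises with at least 1 CPM on average and 1 direction in 6 of 6 animals, the 5 largest differences each way, up to 5 rises and falls in placebo, the 3 largest changes and the smallest of each list, and a fixed set. Some genes are not reported here, among them genes taken by the rule. A further 103 list members given as examples were chosen after their values were seen. Alternatives were no block, DESeq2 1.42.0, limma-voom (limma 3.58.1), RLE scaling, no filter, the deepest run, a 2-fold threshold, each agent alone, M1004 included, runs of shared lane numbers, each animal left out, and, chosen after the data were seen, F1022 and M1008 left out. The virus entry was tested by exact permutation (scipy 1.17.1).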

Additional observations from a re-analysis of the deposited data

Results flagged for a closer look

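ALPL, the tissue-nonspecific alkaline phosphatase, and LOC100652861 were called in both groups in opposite directions. ALPL was higher at week 19 in 6 of 6 wIFN-α animals and lower in 4 of 5 placebo animals (M1011 stood at 3.19 and then 3.26 CPM), and its tested difference was 2.83 on the log2 scale in edgeR. LOC100652861 was higher in 6 of 6 and lower in 5 of 5, with a difference of 3.20, at levels of 0.0633 to 1.79 CPM.

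A rule for values far from the rest of a group marked single animals in the log2 change. Of 337 groups looked at, chance marks about 1 in 20, and 12 were marked, which is no more than that rate gives. In placebo, M1011 was lowest for the median of type I ISGs (-0.52) and highest for bile acid genes (0.33). M1008 was highest for acute phase genes (0.76) and red cell genes (2.06), and F1019 for cholangiocyte genes (0.81). In wIFN-α, F1018 was lowest for CYP26A1 (1.78) and FABP5 (0.52), F1013 was highest for FASLG (-0.21), IDO1 (-1.59) and GZMK (2.26), and M1012 was lowest for SOX9 (-1.30) and highest for OAS3 (-4.56).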

How the results depend on the processing

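The wIFN-α count of 3606 lay between 3222 and 3704 with each animal left out in turn, and was 1806 at a 2-fold threshold and 2377 with runs of shared lane numbers. The difference ranged from 2915 to 4493 with each animal left out, and was 468 with shared lane numbers, a setting with 3 wIFN-α and 2 placebo animals. Without the animal as a block, 3 genes were called in placebo, 2386 in the difference and 3205 in wIFN-α. The placebo count of 65 was 229 with DESeq2, 27 at a 2-fold threshold, 9 with each agent fitted alone, 110 with M1004 included, 16 with shared lane numbers and 31 without F1022 and M1008, and ran from 10 to 91 with each animal left out. Its share of higher genes was 26.2%, and 0% to 37.5% under the alternatives. The cause of these moves was not tested.

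For the 275 genes given values here or taken by the rule, 7678 of 8219 alternative values kept their side of the threshold. Among these 7678, 145 had the other sign and were called in neither fit. A further 396 lost the call and 144 gained one. The remaining 1 reversed, with the other sign and a call in 1 of the 2 fits. It was TNNC2, a muscle gene (-1.50 in all animals, not called, and 0.63 with shared lane numbers). The difference in the virus entry ran from -0.19 to 0.70 with each animal left out. With 5 placebo animals no exact test within that group could reach 0.05.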

Other observations

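The wIFN-α animal M1004, left out of the report and included above in 1 alternative, had few reads on the virus entry at both weeks, 33.4 RPM at week 15 and 10.7 RPM at week 19. Its levels of several genes are given for that reason as values of 1 animal, with no test. RSAD2 stood at 4555 CPM and then at 22.1 CPM, ISG15 at 968.9 and 4.90 CPM, TLR3 at 131.8 and 3.71 CPM, CYP7A1 at 7.36 and 47.6 CPM and GPAM at 180.8 and 1159 CPM.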
